A study of Homo sapiens with 3 samples.

Results

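Genes of protein folding and quality control in the endoplasmic reticulum (ER) were followed on 3 Illumina bead arrays of MDA-MB-231, a long-established cell line from human breast cancer that lacks hormone receptors and is mesenchymal in character. The genes were a list of 33 chosen by name with earlier results of these data known. Every array probe annotated with a listed symbol was read. There were 41 such probes for 32 of the genes, among 48105 probes used on the arrays; HERPUD1, a membrane component of the degradation machinery, had no probe named for it here. At a deposited detection p-value under 0.01, 37 of the 41 probes were detected, each on every array, and they stood for 30 of the genes, out of 12895 detected genes of the series.

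The ER folds and glycosylates proteins bound for the cell surface or for secretion. When unfolded proteins build up in its lumen, the membrane sensors IRE1 (gene ERN1), PERK (EIF2AK3) and ATF6 start the unfolded protein response. IRE1 splices the mRNA of the transcription factor XBP1, PERK slows translation and favours the transcription factor ATF4, and ATF6 is cut in the Golgi to release a transcription factor. Together they raise chaperones, degradation factors and transport proteins. The chaperone BiP, encoded by HSPA5, was first known as a glucose-regulated protein, since glucose starvation raises it. FBP1, the gene of the series' vector, encodes fructose-1,6-bisphosphatase 1, a gluconeogenic enzyme. A link between glucose supply and the levels below was not tested.

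The series holds 1 array of cells that received a vector expressing FBP1, 1 of cells that received the vector with no insert (the vector control) and 1 labelled wt (the wt control), for which the labels say nothing more of the handling. Each is 1 sample of the same line. All cells were grown in DMEM with 10% fetal serum and antibiotics at 37 °C and 5% CO2, and RNA came from 500000 cells. The sources used here do not give the vector's promoter, whether the transfection was transient or whether the cultures ran in parallel. With 1 array per group no difference below has a replicate error or a test, and precision is limited by how few arrays there are. A difference is called by size alone, at 1.5-fold, which is 0.58 on the log2 scale. Levels are normalised log2 intensities, and a level of 1 probe cannot be set against that of another.

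The arrays held the markers of the line: 8 of 8 (among them VIM, CD44 and AXL) were detected on each, with a summed normalised intensity between 35693 and 41025. The wt control stood apart on 1 of them, S100A4, with a level of 11.15 beside 13.20 on the FBP1 array and 12.78 on the vector control, which were 4.13-fold and 3.09-fold higher; the other 7 were within 1.5-fold of wt on both. FBP1 stood at 10.06 on the FBP1 array, 9.22 on the vector control and 8.77 on the wt control. The FBP1 array also carried signals that go against its cell line label, on genes chosen after their values were seen. CDKN2A, a gene deleted in MDA-MB-231 cells, was detected by 2 of 3 probes on the FBP1 array and by 0 of 3 on each control, and MTAP, its neighbour in that deletion, by 1 of 1 probe on the FBP1 array and by 0 of 1 on each control. These signals were low, where the estimated background means were 85.7 to 88.0. The 2 CDKN2A probes gave 120.6 and 105.2 on the FBP1 array and at most 89.0 on the controls. MTAP gave 107.5 on the FBP1 array, 97.7 on the vector control and 85.1 on the wt control. Of 7 markers of luminal breast cells, 3 (CDH1, FOXA1 and EPCAM) were detected on the FBP1 array and 1 (EPCAM) on each control, with a summed normalised intensity of 702 beside 474 (vector control) and 405 (wt), while ESR1, PGR, GATA3 and TFF1 were detected on none. Of 5 leukocyte markers, 2 (CD14 and LYZ) were detected on the FBP1 array and the vector control and 1 (CD14) on the wt control, with sums of 603, 338 and 303, and PTPRC and CD3E on none. Fibroblast markers summed to between 137.1 and 161.1. COL1A1 was detected on each array, COL1A2 on the FBP1 array and the vector control, and DCN, LUM and PDGFRA on none. Markers of professional secretory cells summed to between 163.4 and 186.1. IRF4 was detected on each array, PRDM1 on the vector control alone, and JCHAIN, MZB1, CPA1 and PRSS1 on none. The part of these signals in the results below was not tested, and a change in the mix of cells and a change per cell cannot be told apart. Leaving out the FBP1 array leaves the difference between the controls, which is given beside the results.

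HSPA5 and DNAJB9, a chaperone of the ER lumen and one of its J-domain partners, stood apart from both controls, and no other listed gene did so by 1.5-fold. Of the 30 detected genes, 2 were at least 1.5-fold above the vector control and 0 that far below, where 6.76% of all 12413 detected genes were above and 6.05% below. Against the wt control 6 were above and 0 below, where 8.96% of 12404 genes were above and 8.00% below. Between the controls 0 of the 30 genes differed by that much in either direction, where 3.99% of 12344 genes were higher on the vector control and 3.35% lower. The 2 genes above both controls were 2 of 30 beside a background of 4.02% (519 of 12895 genes), and 0 lay below both beside 3.06%. The share of the 30 genes was near its background against the vector control and larger than it against the wt control, and at 2-fold it was 0 and 1 of 30 (OS9, against wt), where 1.96% of all genes were that far above wt. The FBP1 array enters both comparisons with the controls, so they are not independent. Because the list was chosen with earlier results known, its counts and medians beside those of all genes are a description only.

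The middle of the list lay a little above both controls. The median difference of the 30 genes was 0.17 against the vector control and 0.08 against the wt control, and -0.05 between the controls, where the medians of all detected genes were -0.01, 0.00 and 0.01. On the FBP1 array 19 of the 30 genes were above both controls by any amount and 4 were below both, against 37.6% and 38.1% of all detected genes, and 7 lay between the controls. The levels of all 30 genes on each array show how small most of these steps were.

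**Figure D1:**
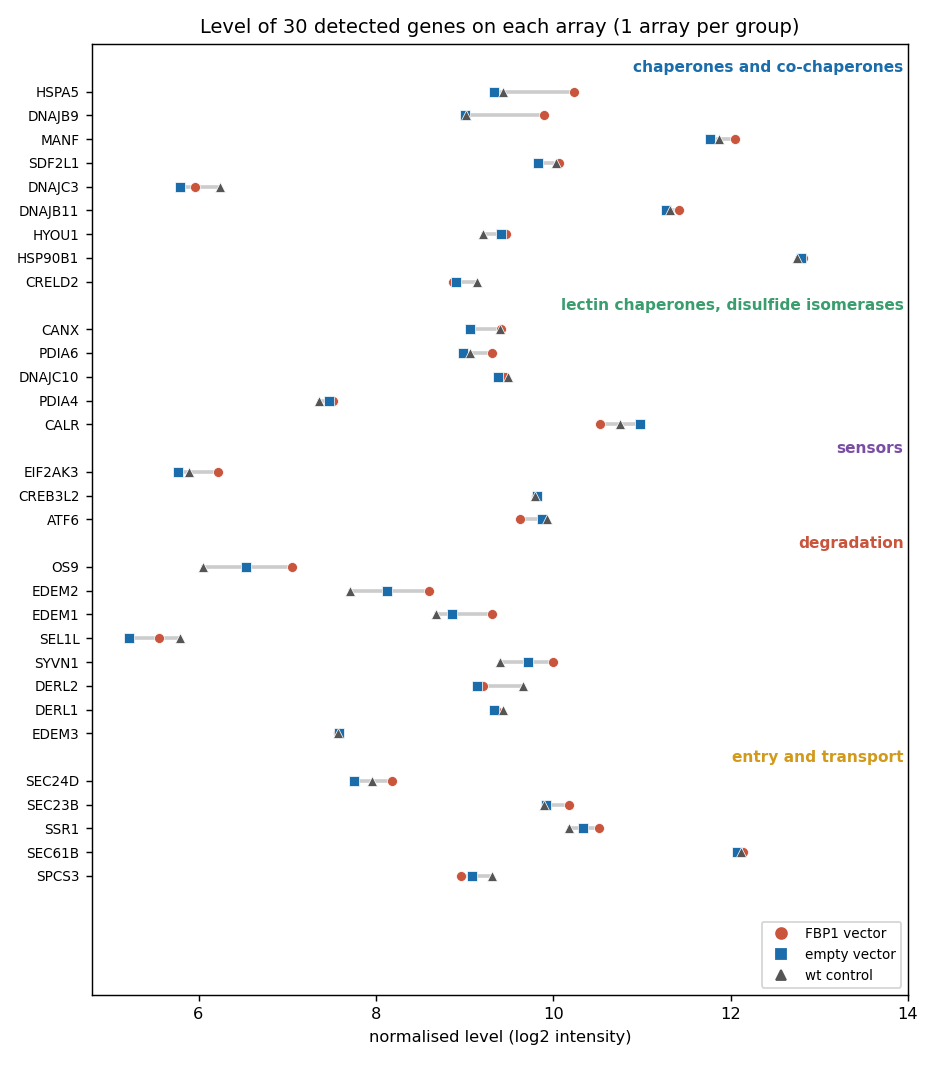
Normalised level (log2 intensity, horizontal axis) of the 30 detected genes on the FBP1 (circles), empty vector (squares) and wt (triangles) arrays, 1 array per group, sorted within each role by the difference between the FBP1 array and the vector control. HSPA5 and DNAJB9 have their FBP1 point far to the right of both controls, while OS9, EDEM2, EDEM1 and SYVN1 run from wt over empty vector to FBP1.

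Among the chaperones, HSPA5 encodes BiP, the main Hsp70 chaperone of the ER lumen. Its probe (ILMN_1773865) gave a signal of 1191 on the FBP1 array beside 729 (vector control) and 801 (wt control), which became levels of 10.23, 9.33 and 9.43. The FBP1 array was the high one and the controls lay close together, at a difference of -0.10. HSPA5 was thus 1.86-fold above the vector control, where 243 of 12413 genes were further above, and 1.74-fold above the wt control, where 511 of 12404 were. DNAJB9 encodes ERdj4, a J-domain protein that works with BiP and delivers misfolded proteins for degradation. Its signals were 963, 591 and 619 and its levels 9.90, 9.01 and 9.02 on the FBP1, vector control and wt arrays. The pattern was that of HSPA5, with controls that differed by -0.01, and DNAJB9 was 1.86-fold above the vector control and 1.84-fold above the wt control. HSPA5 and DNAJB9 were at least 1.5-fold above both controls in 9 of 9 alternative ways of processing. Each was read by 1 probe detected on every array. The alternatives that changed only the detection filter or the probe per gene therefore could not alter its value. Over the alternatives the lowest differences from the vector control and wt were 1.70-fold and 1.61-fold for HSPA5 and 1.69-fold and 1.67-fold for DNAJB9.

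The other 7 chaperones lay within 1.5-fold of each control. HSP90B1, which encodes GRP94, the Hsp90 of the ER lumen, had levels of 12.81, 12.79 and 12.75 on the FBP1, vector control and wt arrays. These 3 levels lay within 0.06 of each other. HYOU1, an Hsp110-like partner of BiP that helps it exchange nucleotide, had levels of 9.47, 9.41 and 9.21, and its other probe gave 0.21 and 0.17 above the controls where this probe gave 0.06 and 0.27. DNAJB11 (ERdj3), a J-domain cofactor, differed by 0.14 from the vector control and 0.11 from the wt control. DNAJC3 (p58IPK), a J-domain protein of the lumen, was at 5.96, 5.79 and 6.24, so the FBP1 array lay between the controls. SDF2L1, a component of the ERdj3 complex, differed by 0.23 and 0.03, and MANF, a secreted stress-induced protein that binds BiP, by 0.28 and 0.18. CRELD2, a disulfide isomerase-like protein induced by ER stress, was the only chaperone below both controls, at -0.04 and -0.26. In all, 2 of 9 chaperones, the same HSPA5 and DNAJB9, were 1.5-fold above each control, where 4.02% of all detected genes were. The medians of the 9 were 0.17 and 0.11, with -0.10 between the controls.

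Promoters of 5 of these genes are shown. HSPA5, HSP90B1 and CALR each hold a match to the ER stress element, a motif known to be bound by ATF6 and XBP1. Their differences from the vector control were 0.90, 0.02 and -0.45. CANX, CRELD2 and PDIA6 also hold a match and are not shown. HYOU1 holds shorter variants of that element. DNAJB9, at 0.89, held no exact match to the motifs searched, and other forms of site were not searched. A part of the element in these differences was not tested. Sequences are from RefSeq (GRCh38.p14), 250 bases before to 50 after the annotated start, 5′ to 3′ on the gene's strand, and capitals mark matches.
HSPA5, chr9:125241294-125241593, - strand: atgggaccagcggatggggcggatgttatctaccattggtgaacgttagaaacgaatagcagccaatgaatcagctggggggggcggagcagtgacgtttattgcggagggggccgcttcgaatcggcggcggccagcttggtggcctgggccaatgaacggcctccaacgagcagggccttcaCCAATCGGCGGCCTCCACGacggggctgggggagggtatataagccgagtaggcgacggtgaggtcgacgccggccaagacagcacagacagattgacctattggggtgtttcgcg
DNAJB9, chr7:108569624-108569923, + strand: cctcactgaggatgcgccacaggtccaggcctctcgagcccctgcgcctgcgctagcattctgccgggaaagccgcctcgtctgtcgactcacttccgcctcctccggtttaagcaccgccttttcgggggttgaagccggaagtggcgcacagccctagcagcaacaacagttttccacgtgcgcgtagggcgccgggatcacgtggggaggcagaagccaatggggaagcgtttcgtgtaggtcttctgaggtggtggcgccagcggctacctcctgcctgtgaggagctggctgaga
HSP90B1, chr12:103930160-103930459, + strand: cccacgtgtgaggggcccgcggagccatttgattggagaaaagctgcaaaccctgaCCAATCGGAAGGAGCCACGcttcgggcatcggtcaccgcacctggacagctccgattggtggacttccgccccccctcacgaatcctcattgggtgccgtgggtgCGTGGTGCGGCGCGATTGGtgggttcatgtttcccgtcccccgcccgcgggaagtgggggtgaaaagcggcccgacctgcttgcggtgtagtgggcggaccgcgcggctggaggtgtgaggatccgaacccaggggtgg
CALR, chr19:12938359-12938658, + strand: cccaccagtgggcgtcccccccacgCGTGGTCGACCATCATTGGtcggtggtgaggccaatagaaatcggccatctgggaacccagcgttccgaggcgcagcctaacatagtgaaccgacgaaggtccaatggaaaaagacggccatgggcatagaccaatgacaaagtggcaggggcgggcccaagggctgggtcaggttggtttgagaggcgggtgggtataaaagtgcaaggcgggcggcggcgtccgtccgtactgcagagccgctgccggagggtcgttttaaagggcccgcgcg
HYOU1, chr11:119057156-119057455, - strand: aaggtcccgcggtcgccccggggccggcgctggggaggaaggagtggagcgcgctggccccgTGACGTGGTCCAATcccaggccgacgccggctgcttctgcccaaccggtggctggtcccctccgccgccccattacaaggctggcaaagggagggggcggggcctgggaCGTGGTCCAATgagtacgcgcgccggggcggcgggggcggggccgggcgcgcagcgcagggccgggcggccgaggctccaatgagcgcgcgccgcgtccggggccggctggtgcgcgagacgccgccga

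The motifs searched on both strands were the ER stress element ERSE (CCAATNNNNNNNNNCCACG), its variant ERSE-II (ATTGGNCCACG) and the core of the unfolded protein response element (TGACGTGG). Promoters were listed for 30 of the 33 genes. An ERSE lay in a promoter of 6 of them, HSPA5, HSP90B1, CALR, CANX, CRELD2 and PDIA6, against 25 of 27305 genes in the whole table (0.0916%). ERSE-II was found for 3 (HERPUD1, HYOU1 and SDF2L1) against 0.0696% of genes, and the shorter core element for 2 (HYOU1 and DNAJC10) against 0.927%. In HSPA5 the match began at position -66 from the start. HSP90B1 held 2 matches, and CALR held 1, in reverse orientation, from position -225. In HYOU1 an ERSE-II and the core element overlapped. By role, 5 of 9 chaperones and 4 of 5 lectin chaperones and disulfide isomerases held at least 1 of the motifs, 1 of 8 degradation genes, and 0 of 4 sensors and 0 of 4 entry and transport genes. The share of all genes holding at least 1 of the motifs was not computed, so the counts by role have no background of their own. Each motif alone was held by at most 0.927% of genes. A match is a run of letters and not a measured binding site.

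The differences of genes with and without an ERSE overlapped. The 6 detected genes with an ERSE had a median difference of 0.17 from the vector control and 0.04 from the wt control, and the 22 detected genes with a listed promoter and no ERSE had medians of 0.17 and 0.13. Within the 6, the differences from the vector control ran from -0.45 (CALR) to 0.90 (HSPA5).

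The lectin chaperones hold glycoproteins in the folding cycle, and the disulfide isomerases form and reshuffle their disulfide bonds. CALR, the soluble lectin chaperone calreticulin, gave signals of 1441, 2120 and 1887 and levels of 10.52, 10.98 and 10.75 on the FBP1, vector control and wt arrays. It was the lowest of the 30 genes against the vector control, at -0.45, and stood at -0.22 against the wt control, with the FBP1 array below both controls. CANX, the membrane-bound partner calnexin, had levels of 9.42, 9.06 and 9.39, so that the vector control alone was low. Its second probe differed by 0.25 from the vector control and by -0.27 from the wt control, so the direction against wt was not shared by the probes.

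PDIA6, a disulfide isomerase, was at 9.31, 8.98 and 9.06, above both controls by 0.32 and 0.24. PDIA4 differed by 0.05 and 0.16. DNAJC10 (ERdj5), which reduces disulfide bonds of proteins on their way to degradation, differed by 0.08 and -0.03 on its brighter probe and by -0.39 and -0.31 on its dimmer one. PDIA3, the disulfide isomerase that pairs with the lectin chaperones, was read by 1 probe that was detected on no array (signals of 76.6, 87.4 and 91.8), so nothing can be said of its level. None of the 5 detected genes of this role reached 1.5-fold in any comparison.

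The sensors showed small differences of unlike sign. EIF2AK3, which encodes PERK, gave signals of 141, 129 and 132 on the FBP1, vector control and wt arrays and levels of 6.22, 5.77 and 5.89, which is 0.45 and 0.32 above the controls. ATF6 gave 804, 1017 and 1107 and levels of 9.62, 9.87 and 9.93, which is -0.25 and -0.31. ERN1, which encodes IRE1, was read by 1 probe detected on no array (80.4, 91.6 and 78.6). CREB3L2, an ER-bound transcription factor related to ATF6, had levels of 9.81, 9.81 and 9.80. PERK mRNA was thus highest and ATF6 mRNA lowest on the FBP1 array, each by less than 1.5-fold; the sensors act through changes of their proteins, which arrays do not measure.

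Of the 6 listed genes at least 1.5-fold above the wt control, 4 act in degradation, a role with 8 of the 30 detected genes. Of all detected genes 8.96% were that far above wt, and of 13 further degradation genes, described below, 0 were. Listed genes of this role trim mannose from glycoproteins that fail to fold (EDEM1, EDEM2, EDEM3) and recognise such glycoproteins (OS9). Others move them to the ubiquitin ligase of the ER membrane (SEL1L, SYVN1, DERL1, DERL2). OS9 gave signals of 195, 168 and 139.5 and levels of 7.06, 6.53 and 6.05 on the FBP1, vector control and wt arrays, which put the FBP1 array 2.005-fold above wt, the only listed gene past 2-fold, and 1.44-fold above the empty vector. Before background correction and normalisation, the ratio of its FBP1 signal to its wt signal was 1.40. EDEM2 gave 432, 357 and 290.0 and levels of 8.60, 8.13 and 7.71, 1.86-fold above wt and 1.39-fold above the empty vector. EDEM1, a well-known XBP1 target, gave 661, 544 and 503 and levels of 9.31, 8.86 and 8.68, 1.55-fold and 1.37-fold higher.

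SYVN1, the ubiquitin ligase HRD1, gave levels of 9.99, 9.71 and 9.40, 1.51-fold above wt and 1.22-fold above the empty vector, but its dimmer probe differed from wt by 0.06 only. In these 4 genes the vector control lay between the FBP1 and wt arrays, above wt by 0.48 (OS9), 0.42 (EDEM2), 0.18 (EDEM1) and 0.31 (SYVN1). The dimmer SYVN1 probe did not show this order, since the vector control stood at -0.37 against wt there. On the brightest probes the order held in 9 of the 30 genes, against 21.6% of all detected genes, and the order from FBP1 over wt down to the vector control in 10 of the 30, against 15.9%. Of the 4, EDEM2 was past 1.5-fold against wt in 9 of 9 alternative ways of processing, OS9 in 7, EDEM1 in 6 and SYVN1 in 4. These counts include the alternatives that changed only the detection filter, which could not alter these values. Taking the mean of a gene's probes could alter only SYVN1, since the others have 1 probe each. With the authors' processed values their differences from wt were 0.66 (EDEM2), 0.48 (OS9), 0.51 (EDEM1) and 0.51 (SYVN1), so only EDEM2 of the 4 stayed past 1.5-fold.

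The other degradation genes did not share this order. SEL1L, the scaffold of the ligase complex, had levels of 5.56, 5.22 and 5.79 and DERL2, a channel component, 9.20, 9.14 and 9.66, so for both genes the wt control was the high one. DERL2 stood at 0.06 against the vector control and -0.45 against the wt control, the lowest of the 30 genes there; its dimmer probe gave -0.13 and -0.10. DERL1 differed by 0.03 and -0.08. EDEM3 had levels of 7.57, 7.59 and 7.57 on its 1 detected probe, and its other 2 probes were detected on no array. Of the 8 detected degradation genes, 0 were 1.5-fold from the vector control, where 6.76% of all detected genes were above and 6.05% below. Against wt 4 were that far above, where 8.96% of all detected genes were. The medians of this role were 0.31 and 0.30, with 0.10 between the controls.

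**Figure D2:**
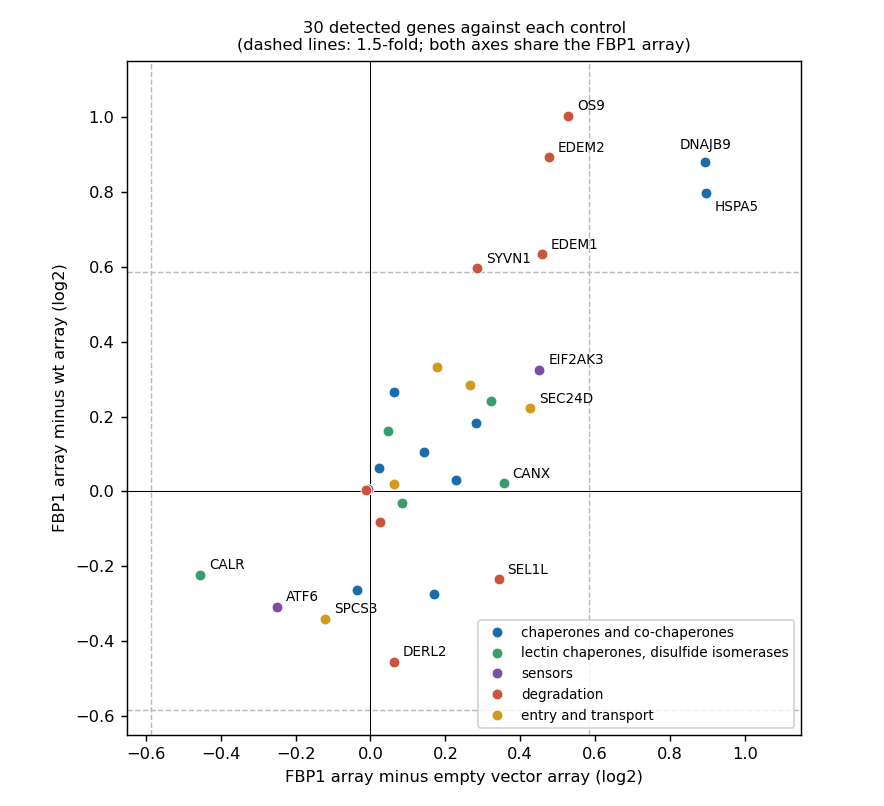
Difference of the FBP1 array from the vector control (horizontal, log2) and from the wt control (vertical, log2) for the 30 detected genes, coloured by role; the axes share the FBP1 array, so points tend to the diagonal. HSPA5 and DNAJB9 lie beyond the dashed 1.5-fold lines on both axes, and 4 degradation genes lie beyond it on the vertical axis alone.

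Genes of entry into the ER and exit from it differed by small amounts. SEC24D and SEC23B, subunits of the COPII coat that carries cargo out of the ER, were above both controls, SEC24D by 0.43 and 0.22 (levels of 8.18, 7.75 and 7.96) and SEC23B by 0.27 and 0.28 (10.18, 9.92 and 9.90). The second SEC23B probe gave 0.40 and 0.30. SSR1, a subunit of the translocon-associated complex, differed by 0.18 and 0.33, and SEC61B, a subunit of the translocation channel, by 0.06 and 0.02. SPCS3, a subunit of signal peptidase, was below both controls at -0.12 and -0.34, and its other probe differed by 0.00 and -0.36. Of these 5 genes 4 were above both controls by some amount and 0 reached 1.5-fold, with medians of 0.18 and 0.22.

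**Figure D3:**
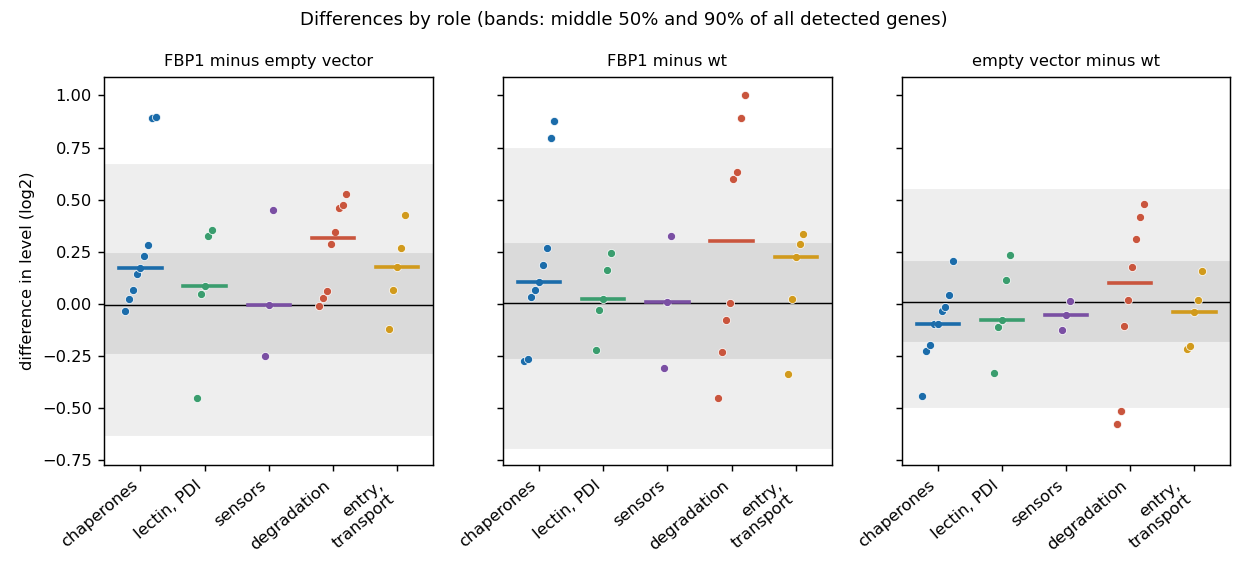
Differences in level (log2, vertical axis) by role for the 3 comparisons; points are genes, coloured bars are medians of each role, and grey bands span the middle 50% and 90% of all detected genes with their median as a black line. The degradation genes have the highest median against each control, and in the panel without the FBP1 array the medians lie between -0.10 and 0.10.

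The order of the roles was thus degradation highest, then entry and transport, chaperones, lectin chaperones with disulfide isomerases, and sensors, in the medians against each control. Their medians were 0.31, 0.18, 0.17, 0.08 and -0.01 against the vector control and 0.30, 0.22, 0.11, 0.02 and 0.01 against the wt control. Each role holds 3 to 9 detected genes. Degradation was also the highest role between the controls, at 0.10, where the other roles lay from -0.10 to -0.04. The degradation medians lay just above the middle 50% of all detected genes and the other medians within it, a band that ran from -0.24 to 0.24 against the vector control and from -0.26 to 0.29 against the wt control.

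Genes can also be grouped by the transcription factor they are best known to follow, a grouping made with the results known. Of 7 genes tied mainly to ATF6 (HSPA5, HSP90B1, HYOU1, PDIA4, CALR, SEL1L and CRELD2) the medians were 0.05 against the vector control and 0.06 against the wt control, with 4 of 7 above both controls by some amount and 2 below both. Of 6 tied mainly to XBP1 (DNAJB9, EDEM1, SEC24D, SEC61B, SSR1 and SPCS3) they were 0.30 and 0.28, with 5 of 6 above both and 1 below both. Over all detected genes 37.6% were above both and 38.1% below both, and the difference between these groups of genes was not tested. Many of these genes respond to either factor, and spliced XBP1 was not measured. Listed genes placed in neither group include DNAJB11 (0.14 and 0.11), DNAJC3 (0.17 and -0.27) and SYVN1 (0.28 and 0.60). The medians of both groups therefore depend on which genes were placed in them.

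**Figure D4:**
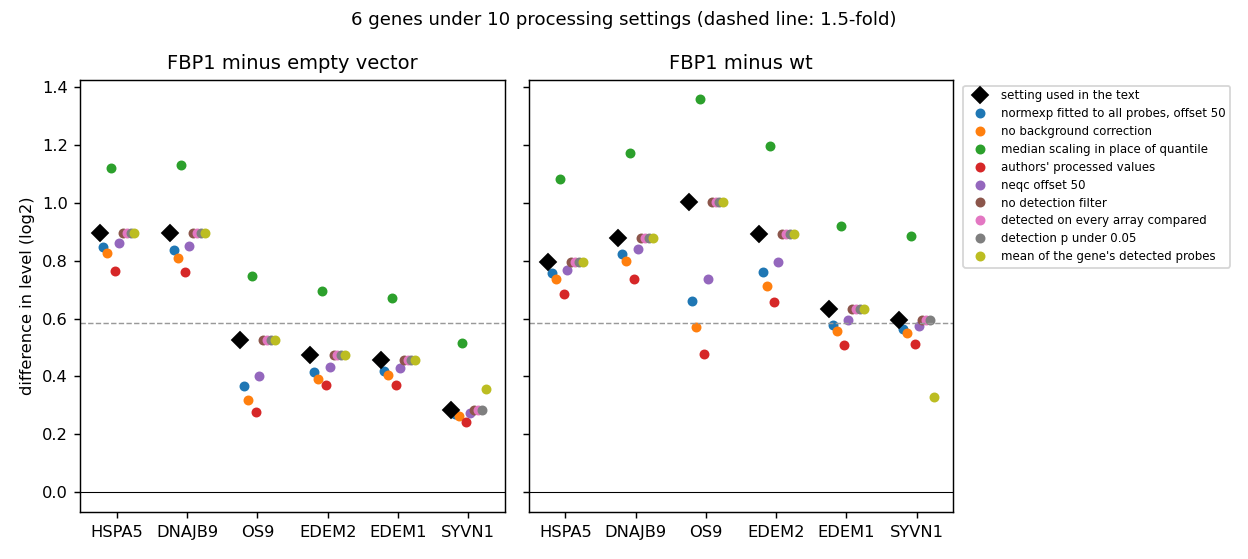
Difference in level (log2, vertical axis) of the 6 genes that reached 1.5-fold against at least 1 control, under the setting used in the text (diamonds) and 9 alternatives (circles), against the empty vector (left) and wt (right) arrays. HSPA5 and DNAJB9 stay above the dashed 1.5-fold line throughout, while OS9, EDEM1 and SYVN1 cross it against wt. The alternatives that change only the detection filter leave each point where it was.

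A wider list of 72 genes of the same pathway gave 67 detected genes, of which 7 were at least 1.5-fold above the vector control and 0 below, and 3 above and 2 below the wt control. Beside them, 6.76% of all detected genes were that far above the vector control and 8.96% above wt, so the share of the wider list was above its background in the first comparison and below it in the second. The medians of the wider list were 0.06 and 0.06. By group they were 0.26 and 0.30 for regulators, 0.12 and 0.05 for degradation and 0.08 and 0.16 for folding. Transport had 0.05 and -0.05, and entry 0.02 and -0.02. Degradation was thus not the highest group of the wider list. The 3 above both controls, near the background of 4.02%, were TRIB3, DDIT3 and FKBP14, and 0 were below both. TRIB3, a pseudokinase induced by ATF4 and DDIT3, had levels of 10.19, 9.12 and 8.84 on the FBP1, vector control and wt arrays, 2.10-fold above the vector control and 2.55-fold above the wt control. DDIT3, the stress transcription factor CHOP, had levels of 9.25, 8.46 and 8.48, 1.73-fold and 1.71-fold higher, with controls that differed by -0.02. FKBP14, a prolyl isomerase of the ER lumen that helps fold collagens, had levels of 10.24, 9.34 and 9.50, 1.87-fold and 1.67-fold higher.

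XBP1 and ATF4, transcription factors upstream of these genes, differed more from the vector control than from wt. XBP1 had levels of 10.71, 10.11 and 10.40 on the FBP1, vector control and wt arrays, 1.51-fold above the vector control and 1.23-fold above the wt control. ATF4, whose control is largely translational, had levels of 12.67, 12.28 and 12.47, and PPP1R15A (GADD34), which reverses the translational block set by PERK, 11.65, 11.06 and 11.40. Each of the 3 was highest on the FBP1 array and lowest on the vector control. By group, 4 of 10 detected regulators were at least 1.5-fold above the vector control, 1 of 10 folding genes, 2 of 15 transport genes, 0 of 13 degradation genes and 0 of 19 entry genes, where 6.76% of all genes were. Against wt, 2 of 10 regulators were that far above and 1 below, 1 of 10 folding genes was above, 1 of 19 entry genes was below, and 0 transport and 0 degradation genes were apart, where 8.96% of all genes were above and 8.00% below. SEC24A and MIA3, which act in the exit of cargo, were the transport genes, at 0.72 and 0.76 against the vector control but 0.22 and 0.23 against wt. The 2 genes that far below the wt control were the ER-bound transcription factor gene CREB3, at -0.97 against wt and 0.08 against the empty vector, and SRPRB, a subunit of the signal recognition particle receptor, at -0.62 and -0.34.

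**Figure D5:**
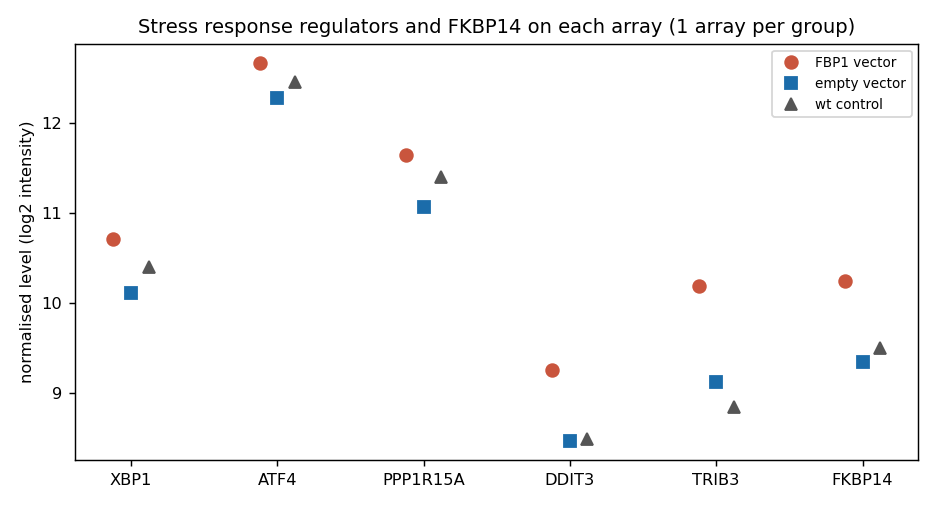
Normalised level (log2 intensity, vertical axis) of 5 stress response regulators and of FKBP14 on the FBP1 (circles), empty vector (squares) and wt (triangles) arrays, 1 array per group. The FBP1 array is the highest for each of the 6 genes, and the controls nearly coincide for DDIT3. TRIB3 and FKBP14 are shown because they were apart from both controls, and PPP1R15A was picked after its values were seen. Of all 10 detected regulators of the wider list, 7 were above both controls by some amount and 3 lay between them. Of all detected genes, 37.6% were above both.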

How the data were processed

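Total RNA of 3 cultures was labelled with Cy3 by the array maker's protocol, per the labels' protocols, and groups were taken from the labels. The first deposited table holds, per the file headers, a signal intensity and a detection p-value per probe and array; its lowest intensities were 63.3 to 68.2, so background had not been subtracted. The authors' second deposited table holds processed intensity, with medians of 87.8 to 87.9; the sources used here give no method, scanner software or genome build for it. Of 48107 probes, 48105 had all values. Intensities were background-corrected from the detection p-values and quantile normalised (neqc, offset 16, limma 3.58.1, R 4.3.3) and taken as log2; the estimated background spread was 4.19 on the FBP1 array, 12.8 on the vector control and 16.2 on the wt control, so it is uncertain. The 30112 probes with 1 gene in the platform annotation took current symbols from RefSeq by gene ID, and 8 with several genes were not used. A gene was read from its brightest probe and compared if 1 or more of the compared arrays had it at a detection p-value under 0.01; every listed gene and its further probes are reported. Of the 72 further pathway genes, those named were the ones apart from both controls, XBP1, ATF4 and DDIT3; PPP1R15A, SEC24A, MIA3, CREB3 and SRPRB were named after their values were seen. Members and lists were chosen with earlier results of these data known. Steps were run on simulated arrays that shared the same background spread, with changes placed only on brighter detected probes. That simulation does not cover the unlike background spreads of these arrays or changes of dim probes. Further steps used Python 3.11.15, numpy 2.4.6, pandas 2.3.3 and matplotlib 3.10.9.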

Additional observations from a re-analysis of the deposited data

How the results depend on the processing

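No paired analysis was possible because each group holds 1 array. The 9 alternatives changed the background correction, the normalisation, the offset, the detection filter, the probe per gene or the source of the values, 1 at a time except that normexp fitted to all probes also came with the larger offset, and all were planned. Median scaling in place of quantile normalisation moved the median of all genes by 0.21 against the vector control, 0.29 against the wt control and 0.08 between the controls. Under it the listed genes past 1.5-fold numbered 9 higher than the vector control, 8 higher than the wt control, 1 higher on the empty vector than on the wt control (OS9), and 6 above both controls, with medians of 0.41 and 0.43. Relative to the shift of all genes the counts were 2, 6 and 0 and the medians 0.21 and 0.14. Without background correction, or with the authors' processed values, 3 listed genes were 1.5-fold above the wt control in place of 6. No listed gene that was past 1.5-fold changed sign under these alternatives. Among all genes, those at least 1.5-fold from the vector control numbered 839 higher and 751 lower here, 1936 and 397 with median scaling, 408 and 286 with normexp fitted to all probes, 321 and 214 without background correction, 443 and 316 with the larger offset, and 265 and 143 with the authors' processed values. Dim probes such as those of SEL1L, DNAJC3, EIF2AK3 and, on the wt control, OS9 lie near background, where the correction sets much of the value.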
